A study of Mus musculus with 18 samples.

Results

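The receptors through which motor neurons and their precursors sense neurotrophic factors were followed across the differentiation of mouse ES cells. The set comprises 10 genes: Ntrk2, Ntrk3 and Ngfr for the neurotrophins, Ret, Gfra1 and Gfra2 for the GDNF family, Met for HGF, and Lifr, Cntfr and Il6st for CNTF and LIF. Members were taken as every probe set whose only gene symbol was one of these names, which gave 40 of the 45037 probe sets tested and 10 of the 18193 genes they stand for. Of the 40 probe sets, 20 reached a log2 signal of 4 on at least 1 array, the level taken as background, and the other 20 stayed under it on every array. Each gene had at least 1 probe set that reached it.

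All arrays come from HBG3, a mouse ES cell line carrying a GFP reporter for the motor neuron gene Mnx1, so every group shares 1 genetic background. The groups are ES cells at day 0 (3 arrays), untreated embryoid bodies at day 2 (4), day 2 embryoid bodies exposed to retinoic acid (RA) for 8 h (2), day 3 neural precursors (3), day 4 progenitor motor neurons (3) and day 7 postmitotic motor neurons (3). ES cells were kept with LIF, on feeder cells for expansion and on gelatin for experiments, and formed aggregates in a medium for which LIF is not listed. RA and a hedgehog agonist were added at day 2, so that days 3, 4 and 7 had received both. For the 8 h arrays the labels give RA alone and include no embryoid bodies cultured for those 8 h without it. RNA came from whole cultures, and the sources used here describe no sorting, so that a lower signal through fewer cells of a type and one through less RNA per cell cannot be told apart.

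Neurotrophic factors act through paired or assembled receptors. Neurotrophins bind Trk tyrosine kinases, and Ngfr, the p75 receptor, binds all of them and can work with the Trk receptors. GDNF family ligands bind a membrane-anchored GFRα co-receptor, which engages the kinase Ret, while HGF binds the kinase Met directly. CNTF binds Cntfr, which has no signalling domain of its own and recruits Lifr and gp130 (Il6st), and LIF uses the latter pair without Cntfr. In the developing spinal cord several of these ligands support motor neuron survival and axon growth, and in ES cells LIF maintains the undifferentiated state through Stat3.

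Values are log2 signals normalized with GCRMA across the arrays, means carry the SD over arrays, and changes carry the standard error (SE) of limma. A gene was called changed where 1 or more of its probe sets passed an adjusted p of 0.01 in limma and moved at least 2-fold, the thresholds of the study. A gene with more probe sets thus had more chances of a call. The 10 receptors had 40 probe sets and all 18193 genes had 34945, which limits the comparison of their shares. The value of a gene is that of its probe set with the highest mean over the 18 arrays. A fold is given as "at least" where every array of the lower group lay under background, and the mean of that group was then set to 4. Signals of different probe sets have different scales, so that levels are compared between stages and not between genes. The comparisons share arrays with one another and are not independent.

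The stage labels were checked against marker lists. Pou5f1, an ES cell factor, lay between 11.43 and 12.84 on the arrays of day 0, day 2 and 8 h of RA. At day 7 it lay between 2.24 and 2.50. Other ES cell markers fell earlier. Of 6 such markers, 2 were called lower at day 2 than at day 0 (Zfp42 and Esrrb), 0 higher and 4 neither. Over all genes 2.46% were called lower and 2.02% higher. The median log2 change of the list was -0.86. At day 0, day 2 and after 8 h of RA the means were 11.41, 6.53 and 4.20 for Esrrb. For Zfp42 they were 11.42, 8.40 and 7.79. Of 8 motor neuron markers, 5 were called higher at day 7 than at day 4, including Slc18a3, the vesicular acetylcholine transporter, while Chat, the enzyme that makes acetylcholine, stayed under background on every array. Between these days 10.8% of all genes were called higher and 8.17% lower. A pair of groups held arrays that stood apart. Of the day 7 arrays, replicate 5 had the highest glial signal, with a mean over 8 glial markers of 8.47, against 6.80 in replicate 3 and 7.34 in replicate 4. Of the day 0 arrays, replicates 2 and 3 had a mean over 8 fibroblast and feeder markers of 5.54 and 5.61, against 4.25 in replicate 1.

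The number of receptors with every array at or above background was 6 of 10 at day 0, 7 at day 2, 9 after 8 h of RA, 8 at day 3, 7 at day 4 and 10 at day 7. Day 7 was therefore the 1 stage at which all of the receptors gave a signal above background on every array. How many of all genes met this rule at each stage was not computed, so the counts have no comparison. The rule is also easier to meet with the 2 arrays after RA than with the 4 arrays of day 2. Each receptor was counted by its brightest probe set, which was chosen by a mean that included the day 7 arrays. Each receptor had a course of its own, as the plot of the receptors by stage shows.

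**Figure D1:**
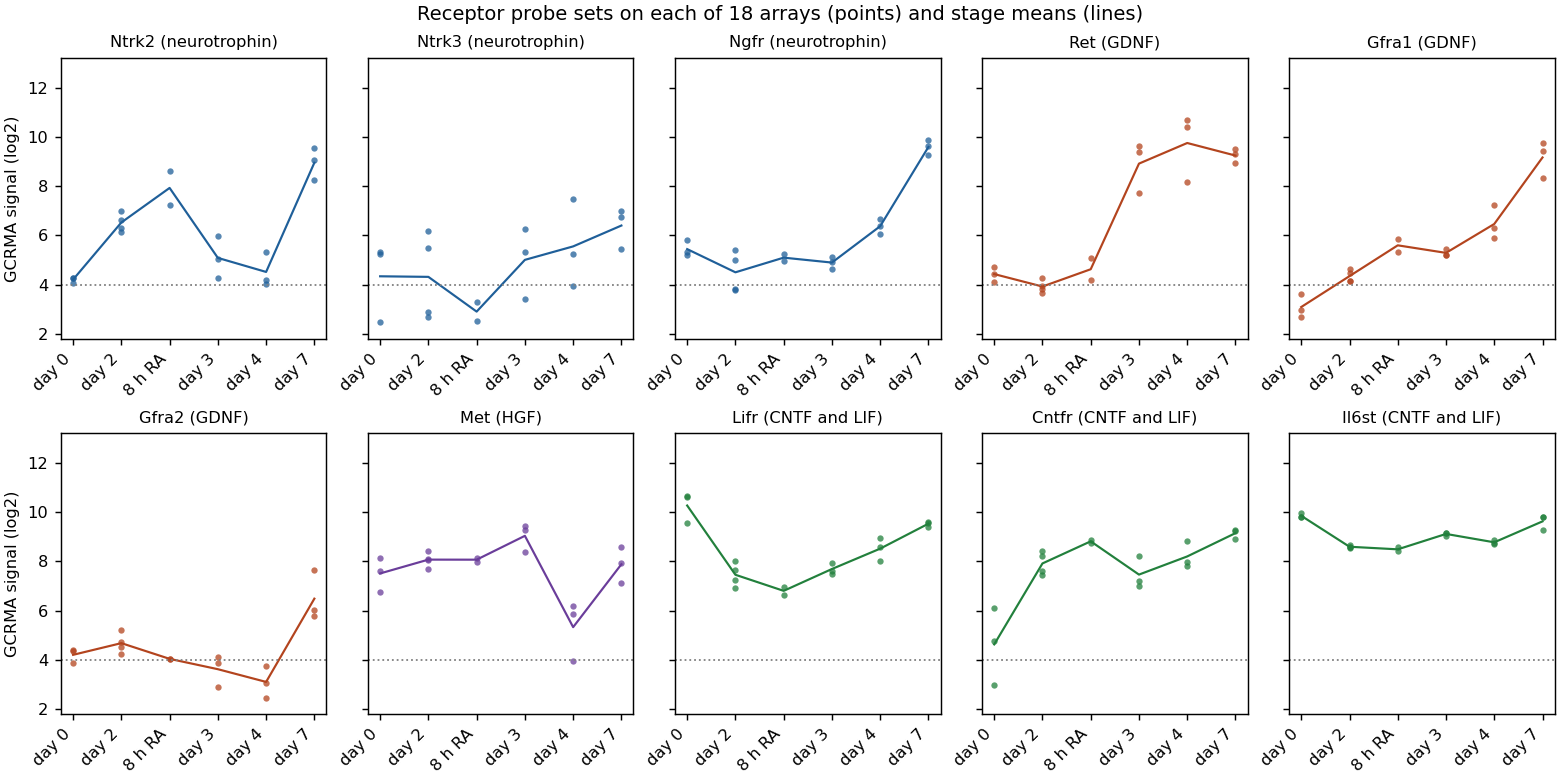
Log2 GCRMA signal (y axis) of the brightest probe set of each of the 10 receptors at the 6 stages (x axis), with a point for each of the 18 arrays, a line through the stage means and a dotted line at the background level of 4. Ret steps up at day 3, Met dips at day 4, Lifr and Il6st fall from day 0 to day 2, and Ntrk2, Ngfr, Gfra1 and Gfra2 are highest at day 7.

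From day 0 to day 2 the receptors of the CNTF and LIF family moved in opposite directions. Lifr and Il6st fell and Cntfr rose, and of the 10 receptors 1 was called higher and 2 lower, where 2.02% of all genes were called higher and 2.46% lower. The median log2 fold change of the receptors was 0.23, against 0.00 for all genes.

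Because Lifr and Il6st, the subunits of the LIF receptor, fell together with Socs3, a STAT3 target that feeds back on this receptor, the start-site windows of these genes are shown. Each runs from 250 bases before the start site to 50 after it and was taken from RefSeq on build GRCm38.p6. Capitals mark AGGTCA, a core element of nuclear receptor sites read here on the other strand, in Lifr, and TTCNNNGAA, the STAT element, in Socs3. The windows lie at chr15:7129322-7129621 (plus strand) for Lifr, the first of its 2 windows, at chr13:112463820-112464119 (plus strand) for Il6st and at chr11:117969317-117969616 (minus strand) for Socs3.
Lifr: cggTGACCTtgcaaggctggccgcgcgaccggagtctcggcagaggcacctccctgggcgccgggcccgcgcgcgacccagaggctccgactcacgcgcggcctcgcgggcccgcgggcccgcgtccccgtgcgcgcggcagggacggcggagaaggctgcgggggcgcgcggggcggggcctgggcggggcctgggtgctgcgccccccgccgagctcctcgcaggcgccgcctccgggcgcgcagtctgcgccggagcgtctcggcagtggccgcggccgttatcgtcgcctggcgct
Il6st: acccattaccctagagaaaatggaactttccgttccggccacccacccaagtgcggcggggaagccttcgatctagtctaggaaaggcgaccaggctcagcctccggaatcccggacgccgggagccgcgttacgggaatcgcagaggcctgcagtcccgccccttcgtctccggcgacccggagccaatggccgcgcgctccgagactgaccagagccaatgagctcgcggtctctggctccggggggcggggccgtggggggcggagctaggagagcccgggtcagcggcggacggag
Socs3: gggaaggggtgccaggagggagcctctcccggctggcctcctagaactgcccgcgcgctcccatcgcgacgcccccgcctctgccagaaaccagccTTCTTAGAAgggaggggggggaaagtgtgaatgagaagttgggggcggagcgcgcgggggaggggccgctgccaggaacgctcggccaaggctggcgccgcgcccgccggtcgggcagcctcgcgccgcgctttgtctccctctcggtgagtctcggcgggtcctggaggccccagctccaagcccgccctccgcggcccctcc
Both strands were searched for AGGTCA, for its variant AGTTCA and for the STAT element TTCNNNGAA, which was added after the expression values had been seen and reads alike on both strands. Among 32544 windows of this length, 16.2% held AGGTCA, 14% held AGTTCA and 8.33% held TTCNNNGAA. Of the 7 receptors with a window, Lifr alone held any of these motifs, an AGGTCA at -247 from its start, and the Socs3 window held its STAT element at -154. No window was at hand for Ret, Ntrk3 and Gfra2.

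Lifr, the signalling subunit that pairs with gp130, read 10.61, 10.64 and 9.54 on the day 0 arrays. At day 2 it read 8.02, 7.64, 7.23 and 6.92, below all day 0 arrays. The fall was 6.99-fold (log2 change -2.81, SE 0.32, limma adjusted p = 1.5e-04). The mean was lowest after 8 h of RA, with arrays at 6.64 and 6.96 that overlapped day 2, and rose to 7.69 ± 0.24 at day 3, 8.51 ± 0.48 at day 4 and 9.52 ± 0.11 at day 7 (SD, n = 3 each), and the arrays of days 3, 4 and 7 did not overlap. The rise from day 4 to day 7 was 2.02-fold and missed the threshold (limma adjusted p = 0.054). Day 7 and day 0 overlapped, with a log2 difference of -0.74 (limma adjusted p = 0.13).

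Il6st, which encodes gp130, the subunit shared by the whole cytokine family, read 9.97, 9.78 and 9.79 at day 0. At day 2 the 4 arrays read 8.55, 8.58, 8.57 and 8.66. The groups did not overlap and the arrays of day 2 were within a narrow band, with a fall of 2.39-fold (log2 change -1.26, SE 0.11, limma adjusted p = 1.4e-05). Its signal at day 7, 9.80, 9.78 and 9.28, overlapped that of day 0. From day 4 to day 7 it was 1.81-fold higher, below the fold threshold (limma adjusted p = 1.0e-04), and without day 7 replicate 5 the log2 change was 1.03 and was called.

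Cntfr, the CNTF-binding subunit, read 2.99, 4.77 and 6.12 at day 0, a wide spread. At day 2 it read 7.43, 7.60, 8.41 and 8.21, above every day 0 array. The rise was 9.78-fold (log2 change 3.29, SE 0.58, limma adjusted p = 0.0043). The call was lost without day 0 replicate 2 (adjusted p = 0.015), day 2 replicate 3 (adjusted p = 0.015) or day 2 replicate 4 (limma adjusted p = 0.014). Among the day 0 arrays, Cntfr and the feeder markers were both lowest in replicate 1, and Cntfr was 3.36 higher at day 2 without replicate 2. The neural progenitor list mean was lowest there too, at 4.51, 5.08 and 5.53 in replicates 1, 2 and 3. Within that list Olig2 and Nkx6-1 ran the other way. The means of the ES cell and glial lists were lowest in replicate 3. The part of any of these markers in the spread of Cntfr was not tested. The level stayed between 7.00 and 8.87 from day 2 to day 4, where adjacent stages in the order of their means overlapped. Within this range both arrays after RA, at 8.87 and 8.75, lay above every array of days 2 and 3. The log2 change of 0.89 from day 2 to 8 h of RA was not called. At day 7 Cntfr reached 9.28, 9.24 and 8.91, above every earlier array. Against day 0 the day 7 level was 23.0-fold higher (log2 change 4.52, SE 0.62, limma adjusted p = 6.7e-05).

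Stat3 and Socs3, on the intracellular side of this pathway, fell over the same interval. Stat3, the transcription factor that gp130 activates, read 7.42, 8.20 and 8.37 at day 0 and between 4.31 and 5.70 at day 2, a fall of 8.41-fold (log2 change -3.07, limma adjusted p = 0.0034). Socs3, an inhibitor induced by Stat3, read 11.24, 10.61 and 9.58 at day 0 and between 5.65 and 6.48 at day 2, a fall of 22.1-fold (log2 change -4.47, limma adjusted p = 8.7e-06). Across the 18 arrays Lifr and Il6st had a Pearson r of 0.87, given as a description, since the arrays share stages. The change of stage and the change of medium cannot be told apart. Fibroblast and feeder markers moved over the same interval, with list means of 4.25 to 5.61 at day 0 and 3.35 to 3.75 at day 2. Of these markers 1 of 8 was called lower, against 2.46% of all genes. In day 0 replicates 1, 2 and 3 the list mean was 4.25, 5.54 and 5.61, and Lifr read 10.61, 10.64 and 9.54. The marker called was Col1a1, a fibroblast collagen, which read 8.76, 9.62 and 11.58 on these arrays and 4.93 to 5.45 at day 2. The part of these markers in the falls of Lifr and Il6st was not tested.

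**Figure D2:**
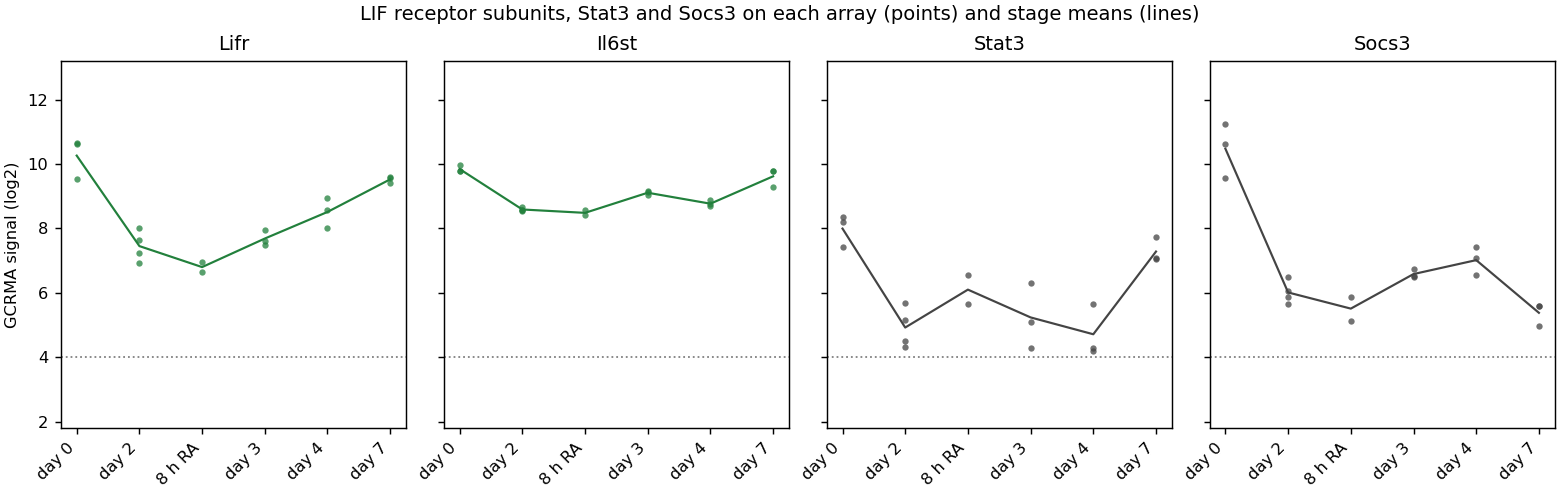
Log2 GCRMA signal (y axis) of the LIF receptor subunits Lifr and Il6st (green) and of Stat3 and Socs3 (grey) at the 6 stages (x axis), with a point per array, lines through stage means and a dotted line at background. All of them are lower at day 2 than at day 0, while at day 7 Lifr, Il6st and Stat3 are higher than at day 4 and Socs3 is lower.

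After 8 h of RA, 0 of the 10 receptors were called in either direction, against 0.363% of all genes called higher and 0.0715% called lower. At an unadjusted p under 0.05 with at least 2-fold, 2 receptors were higher and 0 lower in limma, with a median log2 fold change of 0.30 over the receptors and 0.00 over all genes. These were Ntrk2, the receptor for BDNF and neurotrophin 4, and Gfra1, the GDNF co-receptor. Ntrk2 read 8.63 and 7.23 after RA and 6.15, 6.64, 7.01 and 6.31 at day 2, so that the groups did not overlap, but its log2 change of 1.40 had an adjusted p of 0.86 from limma. A further Ntrk2 probe set, 1435196_at, read 4.66 and 4.78 after RA and between 2.38 and 3.71 at day 2 (limma adjusted p = 0.32). Gfra1 read 5.87 and 5.33 after RA and 4.14, 4.16, 4.48 and 4.62 at day 2, again without overlap, with a log2 change of 1.24 (limma adjusted p = 0.68). With 2 arrays after RA, none of these changes passed the test. The share of all genes past the unadjusted threshold was not computed. Counts at that threshold, here and below, therefore cannot be compared with all genes.

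From day 2 to day 3, when RA and the hedgehog agonist had been present for a day, Ret was the receptor with the largest change. In all, 2 receptors were called higher and 0 lower, where 3.91% of genes were called higher and 3.8% lower, and at an unadjusted p under 0.05 with at least 2-fold 2 were lower in limma, namely Ntrk2 and Gfra2. The median log2 fold change of the receptors was 0.46, and that of all genes 0.00.

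Ret, the kinase shared by all GDNF family ligands, read 3.93, 4.27, 3.83 and 3.68 at day 2, with 1 of 4 arrays above background. At day 3 it read 9.39, 9.63 and 7.73, a change of 31.8-fold (log2 change 4.99, SE 0.56, limma adjusted p = 9.2e-05). It had not risen in this way after 8 h of RA, where it read 4.18 and 5.08, and no array of the first 3 groups overlapped those of day 3. The level stayed high, at 10.39, 10.68 and 8.19 on day 4 and 9.30, 8.93 and 9.50 on day 7, and these stages overlapped with day 3. The low array at day 3 and at day 4 was replicate 3 in both cases, and the numbers pair the arrays of days 2 to 4. The differences within replicates 1, 2 and 3 from day 2 to day 3 were 5.46, 5.36 and 3.90. With the replicate number as a block in a fit of those days alone, the log2 change was 4.91 with an adjusted p of 0.0104 from limma, just outside the threshold, and with the block in the fit of all stages before day 7 it was 0.0022. At day 7 Ret was 28.1-fold above day 0 (log2 change 4.81, SE 0.60, limma adjusted p = 3.2e-05).

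The other call at day 3 was for Il6st and rested on a dim probe set, 1437303_at, that read between 2.76 and 3.97 at day 2 and 6.03, 6.03 and 7.30 at day 3, at least 5.48-fold higher (log2 change 3.15, SE 0.62, limma adjusted p = 0.0057). The brightest Il6st probe set rose by 0.52 (SE 0.11, limma adjusted p = 0.0070), under 2-fold. With the replicate block, the Il6st call was lost.

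From day 3 to day 4 Met, the HGF receptor, known for its role in motor axon growth, was the 1 receptor called, and it was lower. In all 0 receptors were called higher and 1 lower, where 0.627% of genes were called higher and 0.792% lower. At an unadjusted p under 0.05 with at least 2-fold, 2 were higher in limma (Ngfr and Gfra1), and the median log2 fold change of the receptors was 0.64 against 0.00. Met read 9.42, 9.29 and 8.39 at day 3. At day 4 it read 3.95, 5.86 and 6.17, below every array of all other stages. The fall was 13.1-fold (log2 change -3.71, SE 0.56, limma adjusted p = 0.0036). Within replicates 1, 2 and 3 the differences were -5.47, -3.43 and -2.22. With the numbers as a block the adjusted p was 0.017, or 0.12 in the fit of days 2 to 4 alone, and without day 3 replicate 1 or replicate 2 it was 0.023 and 0.020, so that the direction held and the call did not.

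At day 7 Met read 8.56, 7.13 and 7.95, overlapping day 0, which was 6.77, 8.15 and 7.60. The rise from day 4 was 5.88-fold (log2 change 2.56, SE 0.56, limma adjusted p = 0.0049). The call was lost without day 4 replicate 1 (log2 change 1.87, adjusted p = 0.014), day 7 replicate 3 (2.21, adjusted p = 0.026) or day 7 replicate 5 (2.52, limma adjusted p = 0.017). In the order of the stages, day 4 lay apart at the bottom, while each neighbouring pair from day 0 through day 7, 8 h of RA and day 2 to day 3 overlapped.

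From day 4 to day 7, as progenitors became postmitotic neurons, 6 receptors were called higher and 0 lower. Over all genes 10.8% were called higher and 8.17% lower, and 0 receptors were lower at an unadjusted p under 0.05 with at least 2-fold in limma. The 6 were Ntrk2, Ntrk3, Ngfr, Gfra1, Gfra2 and Met, so that all of the neurotrophin receptors of the set and both GFRα co-receptors rose, while Ret had risen earlier. The median log2 fold change of the receptors was 1.78, against 0.00 for all genes.

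The brightest probe set of Ntrk2, 1420838_at, read 4.28, 4.07 and 4.28 at day 0, between 6.15 and 7.01 at day 2, 5.97, 5.04 and 4.26 at day 3, and 4.21, 5.33 and 4.02 at day 4. The rise from day 0 to day 2 was 5-fold, with an adjusted p of 0.011 from limma, next to the threshold, and passed when dim probe sets were left out (adjusted p = 0.0031). At day 7 it read 8.24, 9.06 and 9.56, above every array of days 3 and 4, which was 21.6-fold above day 4 (log2 change 4.44, SE 0.51, limma adjusted p = 2.9e-05). In order of their means, days 0, 4 and 3 overlapped with their neighbours, days 3 and 2 did not overlap, day 2 lay below 8 h of RA, and 8 h of RA and day 7 overlapped. The change from day 2 to day 3 did not pass (log2 change -1.44, SE 0.47, limma adjusted p = 0.092).

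A trio of other Ntrk2 probe sets was called at day 7 too. Probe set 1458622_at read 7.89, 7.87 and 9.98 and lay under background on all other arrays, at least 23.9-fold above day 4 (limma adjusted p = 4.2e-06). Probe sets 1435305_at and 1435196_at were at least 6.06-fold and at least 3.45-fold above day 4. Of these, 1435196_at was the 1 that also exceeded background after 8 h of RA, and 1458622_at and 1435305_at stayed under background at day 2 and after RA, where 1420838_at was between 6.15 and 8.63. Ntrk2 is known to produce a full-length kinase and truncated forms, and which transcript each probe set reads is not given in the sources used here.

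Ntrk3, the neurotrophin 3 receptor, was called through probe sets other than its brightest. The brightest, 1447723_at, ranged from 2.48 to 5.31 at day 0 and from 2.69 to 6.20 at day 2, and each stage overlapped with the next in level. Its change from day 4 to day 7 was 0.85 (SE 1.21, limma adjusted p = 0.86). Probe set 1433825_at lay between 2.24 and 3.18 on the 15 arrays before day 7 and read 5.55, 5.86 and 7.00 at day 7, at least 4.39-fold above day 4 (limma adjusted p = 9.0e-07). Probe set 1425071_s_at read 6.50, 6.02 and 7.48 at day 7 and between 2.32 and 3.24 at day 4, at least 6.36-fold higher (limma adjusted p = 5.9e-05). Both sets were above their whole earlier range at day 7, and 1425070_at was called as well. Averaged over its probe sets, Ntrk3 rose by 1.47 and was called.

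**Figure D3:**
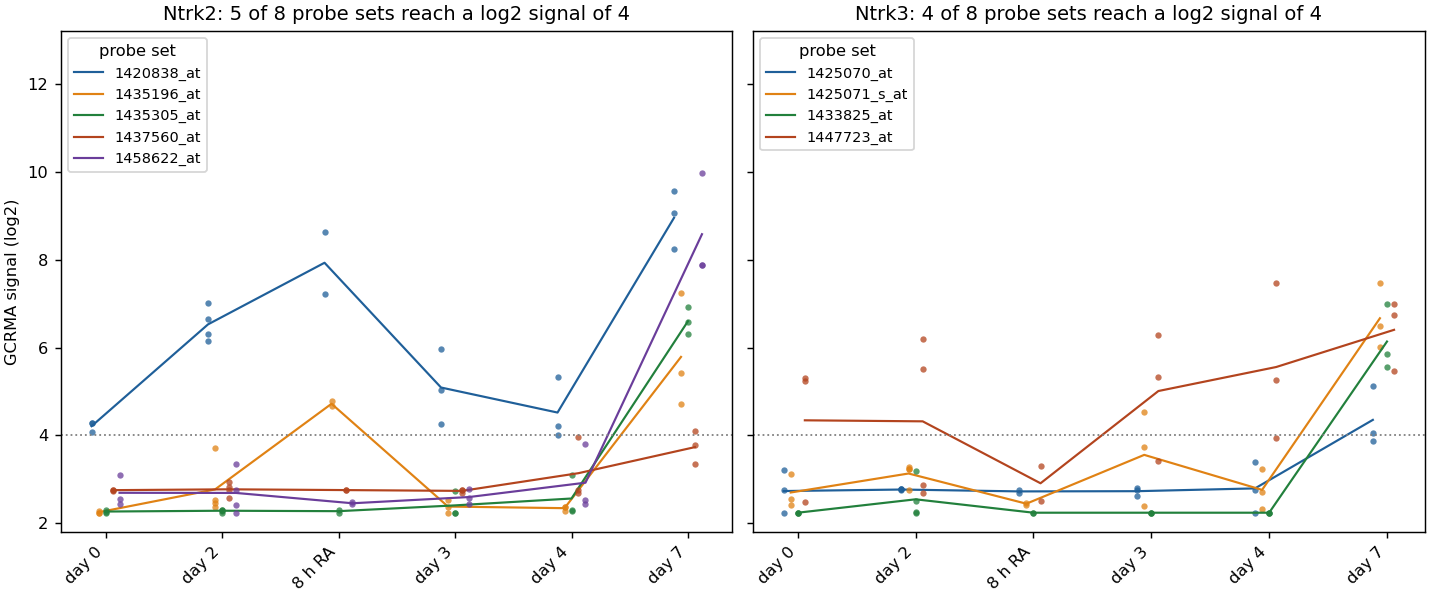
Log2 GCRMA signal (y axis) at the 6 stages (x axis) of the Ntrk2 probe sets (left, 5 of 8) and Ntrk3 probe sets (right, 4 of 8) that reached the background level of 4 (dotted line) on at least 1 array, with a point per array and lines through stage means. Ntrk2 1420838_at is above background from day 0 and has its highest means after 8 h of RA and at day 7, whereas 1458622_at and 1435305_at rise at day 7 alone, and Ntrk3 1433825_at does so too.

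Ngfr, the p75 receptor, was above background at day 0 (5.32, 5.19 and 5.83). It read 3.79, 3.81, 5.01 and 5.41 at day 2, so that day 2 spanned the background level. At day 4 it read 6.40, 6.67 and 6.06, above every earlier array, and at day 7 it read 9.88, 9.28 and 9.62. The rise to day 7 was 9.28-fold (log2 change 3.21, SE 0.39, limma adjusted p = 4.7e-05). The earlier step from day 3 to day 4, 1.48 on the log2 scale, did not pass (limma adjusted p = 0.11). Against day 0, day 7 was 17.7-fold higher.

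Gfra1 climbed through most of the course, with stage means of 3.10, 4.35, 5.60, 5.29, 6.46 and 9.17 at day 0, day 2, 8 h of RA, day 3, day 4 and day 7. Neighbouring stages in this order did not overlap on any array except 8 h of RA and day 3. At day 7 the arrays read 9.41, 9.76 and 8.33, against 6.29, 7.23 and 5.88 at day 4. This change was 6.51-fold (log2 change 2.70, SE 0.39, limma adjusted p = 2.3e-04). All 3 day 0 arrays were under background, and day 7 was at least 35.9-fold above them, with an adjusted p of 6.9e-08 from limma. None of the single steps before day 7 was called. A fainter probe set, 1450440_at, lay under background before day 7 and read 4.90, 3.57 and 4.32 there.

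Gfra2, the neurturin co-receptor, was read through 1 probe set, 1433716_x_at, whose suffix marks probes that may match other transcripts. It read 3.77, 2.46 and 3.08 at day 4 and 5.76, 6.03 and 7.66 at day 7, at least 5.59-fold higher (log2 change 3.38, SE 0.49, limma adjusted p = 2.2e-04). The remaining 4 Gfra2 probe sets stayed under background on all 18 arrays, and the change was 0.00 when sets with such a suffix were left out. Before day 7 the brightest probe set moved between 2.46 and 5.21, and its stages overlapped with their neighbours in level. Its day 2 arrays, from 4.24 to 5.21, lay above all arrays after RA and at day 3, and neither change was called.

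Across the whole course, from day 0 to day 7, 7 receptors were called higher and 0 lower, where 16.8% of genes were called higher and 16.3% lower. The receptors called higher were Ntrk2, Ntrk3, Ngfr, Ret, Gfra1, Gfra2 and Cntfr, and their number at an unadjusted p under 0.05 with at least 2-fold was the same in limma, with 0 lower. The other 3 receptors, Met, Lifr and Il6st, had values at day 7 that overlapped those of day 0. The median log2 fold change of the receptors was 3.21, against 0.00 for all genes. Gfra2 was 4.86-fold higher in this comparison (limma adjusted p = 0.0026), and lost its call without day 0 replicate 3 (adjusted p = 0.012).

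**Figure D4:**
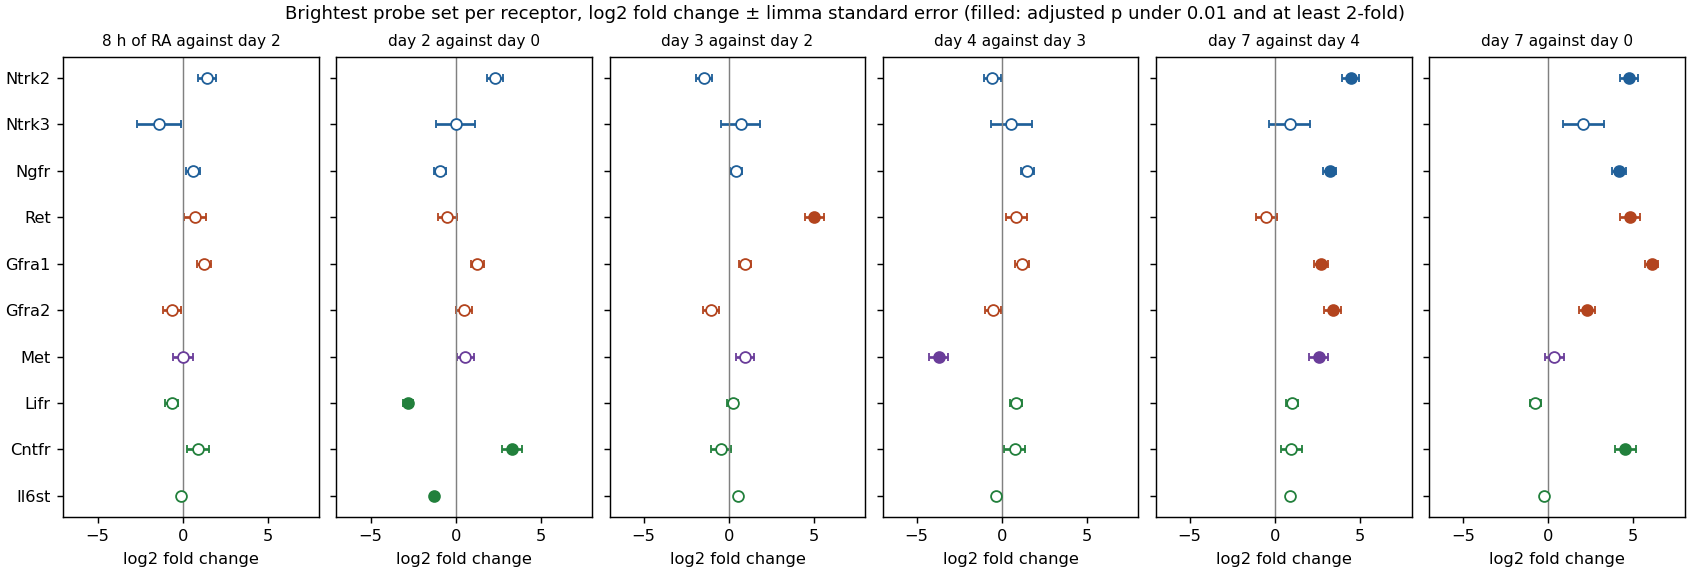
Log2 fold change with limma standard error (x axis) of the brightest probe set of each of the 10 receptors (y axis) in 6 comparisons, filled where the adjusted p was under 0.01 with at least 2-fold. Ret is filled at day 3 with 4.99, Met at day 4 with -3.71, and Ntrk2, Ngfr, Gfra1, Gfra2 and Met at day 7 against day 4. The calls of Ntrk3 and of Il6st at day 3 came from other probe sets and are not filled.

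The 3 day 7 arrays differed among themselves in other cell types. Of the 8 glial markers, 4 were called higher at day 7 than at day 4 (Aqp4, Slc1a3, Aldh1l1 and Cnp), with list means of 6.80 to 8.47 at day 7 and 5.17 to 5.56 at day 4. Olig1, a factor of oligodendrocyte precursors, read 7.52, 9.52 and 12.11 in day 7 replicates 3, 4 and 5, and Pdgfra, their growth factor receptor, read 5.31, 7.28 and 9.02. Sox10, a factor of oligodendrocyte and neural crest cells, read 6.88, 9.04 and 11.05, while Gfap, the filament of astrocytes, stayed under background on every array. Other glial markers did not follow that order, such as Aqp4, a water channel of astrocytes, at 5.72, 4.79 and 4.00, and Aldh1l1, an astrocyte enzyme, at 9.49, 9.77 and 9.37. The list mean of the motor neuron markers ran in the order of Olig1 too, at 6.35, 6.87 and 7.06. So did Mnx1, at 5.67, 6.84 and 7.44, Slc18a3, at 6.40, 6.85 and 7.86, Isl1 and Lhx3. Prph, of the same list, ran the other way, at 10.90, 10.40 and 9.75. Isl2, Chat and Slc5a7 followed neither order. Ntrk2 had the order of Olig1, at 8.24, 9.06 and 9.56, and Gfra2 as well, at 5.76, 6.03 and 7.66. Ntrk3 had it by probe set 1433825_at, at 5.55, 5.86 and 7.00, and its probe set 1425071_s_at was highest in replicate 5. The brightest Ntrk3 probe set was lowest there, at 6.75, 7.00 and 5.46. Gfra1, Lifr, Cntfr and Il6st were lowest in replicate 5. The part of the glial signal in these receptors was not tested. Without replicate 5, Ntrk2, Ntrk3, Ngfr, Gfra1, Gfra2 and Il6st were called between day 4 and day 7, and Met was not. The glial means of replicates 3 and 4 also lay above those of day 4. Of 7 pan-neuronal markers, 7 were called higher over the interval, and 3 of 7 spinal interneuron markers measured were higher too. Over all genes 10.8% were called higher and 8.17% lower between day 4 and day 7.

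**Figure D5:**
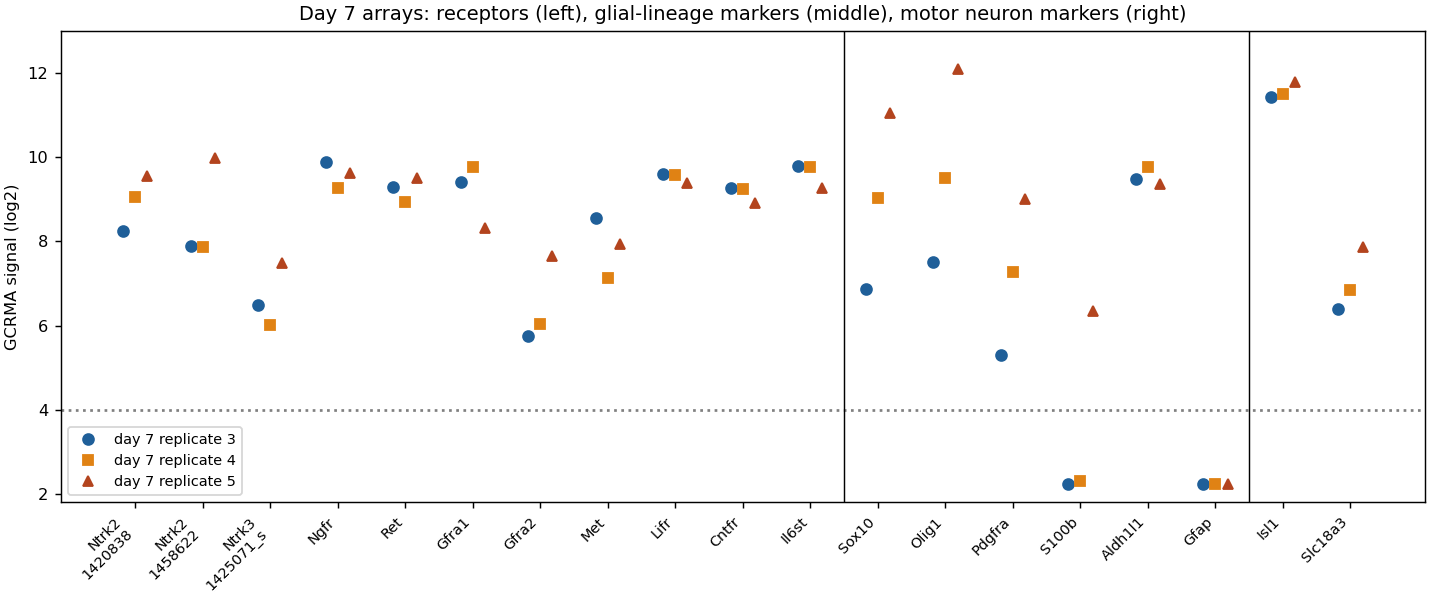
Log2 GCRMA signal (y axis) of receptors (left, with the probe set number for Ntrk2 and Ntrk3), glial-lineage markers (middle) and motor neuron markers (right) on the 3 day 7 arrays, marked by replicate, with a dotted line at background. Replicate 5 is highest for Sox10, Olig1, Pdgfra, S100b, Isl1 and Slc18a3, for both Ntrk2 probe sets, the Ntrk3 probe set shown, Ret and Gfra2. It is lowest for Gfra1, Lifr, Cntfr, Il6st and Aldh1l1.

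The remaining parts of these pathways were described from lists of receptors, ligands, adaptors and feedback genes. For the counts of these lists, the shares of all genes called higher and lower were 2.02% and 2.46% from day 0 to day 2. They were 0.363% and 0.0715% after RA and 3.91% and 3.8% at day 3. At day 4 they were 0.627% and 0.792%, and at day 7 against day 4 they were 10.8% and 8.17%. Of 9 other receptors and co-receptors measured of 12 listed, 1 was called higher at day 2 than at day 0, 2 at day 3 than at day 2 and 3 at day 7 than at day 4. Lower calls numbered 0 in each, and Sort1 at day 3, by a probe set other than its brightest, was the 1 gene lower at an unadjusted p under 0.05 with at least 2-fold in limma. After RA and at day 4 the calls were 0, and Gfra3, lower at day 4, was the 1 gene past that unadjusted threshold. Sort1, a sorting receptor that works with Ngfr, was 6.60-fold higher at day 2 than at day 0 (log2 change 2.72, limma adjusted p = 0.0014). Ncam1, an adhesion molecule that can also bind GDNF, was 3.95-fold higher at day 3 than at day 2. Gfra3, the artemin co-receptor, read 3.10, 4.84 and 6.22 at day 3 and lay under background at every other stage. At day 7 Lingo1, a co-receptor of Ngfr, was at least 37.6-fold above day 4, and Kidins220, a scaffold of Trk receptors, was 6.86-fold higher. The median log2 change of the list was 0.32 between these days, against 0.00 for all genes.

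The ligands were mostly near background. Of 12 measured of 16 listed, 10 lay under background on every array at day 7 and 7 did so at day 0. Gdnf was at 2.24 on all 18 arrays. An exception was Ctf1, cardiotrophin 1, a ligand of Lifr and gp130, which read 8.33, 8.40 and 8.34 at day 0, between 6.51 and 7.42 at day 4, and 3.09, 3.91 and 4.13 at day 7. It fell from day 4 to day 7 (log2 change -3.20, limma adjusted p = 2.8e-06), with 1 of 3 day 7 arrays above background, and it was the 1 ligand called between neighbouring stages. The median log2 change of the ligands over this step was -0.02.

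Of 18 adaptors, kinases and STAT factors measured of 20 listed, 1 was higher and 2 were lower at day 2 than at day 0, 1 higher and 2 lower at day 3 than at day 2, and 6 higher and 1 lower at day 7 than at day 4. Both at day 4 and after RA 0 were called, and at an unadjusted p under 0.05 with at least 2-fold in limma 1 was higher (Gab2) and 1 lower (Shc1) at day 4, and 0 after RA. Jak2, a kinase that binds gp130, was 4.37-fold higher at day 3 than at day 2, while Jak1 and Tyk2 of the same list were not called. Stat3 was 5.95-fold higher at day 7 than at day 4 (log2 change 2.57, limma adjusted p = 0.0047), at 7.04, 7.08 and 7.73 against 4.20, 4.30 and 5.64. Gab2, an adaptor of receptor kinases, was 7.72-fold higher, and Shc1, another such adaptor, was 4.37-fold lower. The list had a median log2 change of 0.89 from day 4 to day 7.

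Of 12 feedback and target genes, 1 was lower at day 2 than at day 0, 7 were lower at day 3 than at day 2, 2 at day 4 than at day 3, and 2 were higher and 1 lower at day 7 than at day 4. After RA 0 were called, with 3 lower at an unadjusted p under 0.05 with at least 2-fold in limma (Socs2, Spry4 and Etv5). The falls at day 3 were led by Spry4, an inhibitor of receptor kinase signalling, at least 15.7-fold lower, and Etv5, a transcription factor downstream of receptor kinases that GDNF is known to induce, which was 27.2-fold lower. The median log2 change of the list at day 3 was -2.29, against 0.00 for all genes, and these genes are also known targets of FGF signalling. Etv5 was higher at day 7 than at day 4 (log2 change 3.06, limma adjusted p = 4.4e-04), with 1 of 3 day 4 arrays above background, and Socs3 was 3.11-fold lower.

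For 9 receptors whose stage means differed by at least 2, the genes with the most similar course were sought among 8697 genes that reached a log2 signal of 8, by Pearson r over the 18 arrays as a description. They were Hoxd3, 9530068E07Rik and Baz2b for Ret (r = 0.975, 0.970 and 0.968), Mllt11, Trim36 and Parp6 for Ngfr (0.973, 0.973 and 0.970), and Mageh1, Fzd1 and Sel1l for Gfra1 (0.973, 0.962 and 0.960). Those for Cntfr were Ptpn9, Tdrd3 and Sort1 (0.969, 0.943 and 0.943). Those for Ntrk2 were Sv2a, Cdh10 and Nap1l2 (0.933, 0.920 and 0.920), and those for Ntrk3, by its brightest and widely spread probe set, were Foxp2, Kcnma1 and Ncam2 (0.943, 0.942 and 0.934). Gfra2 was nearest to Tnik, Lrrc3 and Tunar (0.894, 0.885 and 0.880), and Lifr to Ypel5, Gabbr1 and Fam13c (0.882, 0.869 and 0.861). Met had the least similar company, with Ino80c, Rdh10 and Ank at 0.879, 0.793 and 0.790.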

How the data were processed

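RNA of 18 samples was amplified and hybridized to Affymetrix mouse arrays. The authors deposited log2 signals per probe set, normalized with GCRMA across all arrays, which adjusts background by probe sequence and can compress dim values to a common floor. Versions of the authors' tools are not given in the sources used here. After 64 of 45101 probe sets (controls) were left out, limma 3.58.1 in R 4.3.3 was fitted to 6 group means (12 residual and 0.515 prior degrees of freedom) with Benjamini-Hochberg adjustment over 45037 probe sets, and was tested on simulated data. Probe sets with 1 symbol (34945) named genes, 932 had several and 9160 none. Per array, 55.2% to 56.9% of probe sets lay under background. The small number of arrays limits precision. The methods describe biological triplicates. Members and lists were chosen with earlier results of these data known. All receptors were named, and from each pathway list up to 4 called genes with the largest change per comparison. Same-numbered arrays deviated together from day 2 to day 3 (r = 0.482, 0.345 and 0.476 across probe sets) and from day 3 to day 4 (0.641, 0.422 and 0.746), so these were taken as paired. They did not for the other comparisons. Promoters were taken from RefSeq (GRCm38.p6). Alternatives included other normalizations, filters, probe set rules, a replicate block and each array left out.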

Additional observations from a re-analysis of the deposited data

How the results depend on the processing

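Of 1020 values of 60 receptor changes under alternatives, 987 stayed on the same side of the thresholds, 26 lost a pass and 6 gained one. The remaining 1 had no direction: Gfra2 from day 4 to day 7, 0.00 with s, x and a suffixes left out, its other sets being under background. These counts follow the brightest probe set of each gene, or the average where sets were averaged. A gene could therefore keep its call through another set. Direction was compared only where this value passed in the main fit or the alternative. With the arrays of the 2 groups alone, 1 receptor was called at day 2 (Il6st), 1 at day 3 (Ret), 0 at day 4 and 3 at day 7 against day 4. The calls lost in that last comparison were those of Gfra1, Gfra2 and Met (limma adjusted p = 0.054, 0.049 and 0.13). For day 7 against day 0, Cntfr and Gfra2 did not pass in this setting (limma adjusted p = 0.028 and 0.063). At day 3, 1 receptor was called with the brightest probe set alone, with probe sets averaged and with values raised to 4 (Ret each time). With the replicate block, 1 was called at day 3 and 0 at day 4, and with the paired numbers of days 2 to 4 alone, chosen after seeing the data, 0 and 0. In the block fit before day 7, day 2 replicate 4 is alone with its number. Cntfr from day 0 to day 2 also lost its call there (3.19, limma adjusted p = 0.014), where the numbers do not pair the arrays. No paired analysis was possible for day 7 because it shares 1 number with day 4 and with day 0. Without each array in turn, the receptors called were 0 to 0 after RA, 2 to 3 at day 2, 1 to 2 at day 3, 0 to 1 at day 4, 5 to 6 at day 7 against day 4 and 7 to 7 against day 0. The receptors called at day 7 against day 4 changed without day 7 replicate 5, where Met lost its call and Il6st was called higher. The 7 against day 0 were not always the same either. Without day 0 replicate 3, Gfra2 lost its call and Il6st was called lower. That Il6st call rested on a dim probe set, 1460295_s_at, at background or above on 1 of 18 arrays. It read 3.61 and 4.06 in day 0 replicates 1 and 2 and 2.74, 2.74 and 2.97 at day 7. At day 3 Il6st lost its call in 6 of 7 cases. Leaving day 7 replicate 5 out of the fit, also chosen after seeing the data, changed no receptor call between earlier stages. The median difference between groups over all probe sets was 0 before quantile normalization and 0.0 after it. With 55.2% to 56.9% of probe sets per array under background, this median could hardly show a shift in scaling. Dim signals at the floor limit changes of low probe sets.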
